A study of Mus musculus with 7 samples.

Results

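A set of 7 genes of cytosolic DNA sensing was followed through the cell classes of 7 mouse tumors. The genes were Cgas, Sting1, Tbk1, Irf3, Trex1, Zbp1 and Ifi204, taken by symbol from the 33696 genes that were counted. All 7 were listed, and 6 of them had unique molecular identifiers (UMIs, each standing for 1 captured RNA molecule), since Trex1 had a UMI in 0 of the 39537 cells. The tumors grew from JW23.3, a mouse malignant peripheral nerve sheath tumor (MPNST) line with mutant Nf1 and Trp53, injected under the skin of female C57/B6 wildtype mice that were 5 to 6 weeks old. The 4 irradiated tumors received 5 daily fractions of 2 Gy, with lead shielding around the tumor, and the 3 control tumors were not irradiated. Every tumor was harvested on day 21 and gave 1 library of 3' single-cell RNA profiles, so the tumor was the replicate. All grafts came from 1 cell line, and the hosts kept their immune system.

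Cyclic GMP-AMP synthase, the product of Cgas, binds double-stranded DNA in the cytosol and makes the second messenger cGAMP. cGAMP binds STING at the endoplasmic reticulum, STING then recruits the kinase TBK1, and TBK1 phosphorylates IRF3, the transcription factor that starts type I interferon production. TREX1 is an exonuclease that clears cytosolic DNA, ZBP1 senses Z-form nucleic acids and starts cell death through RIPK3, and IFI204 is a member of the interferon-inducible p200 family of DNA-binding proteins. Damaged DNA that leaves the nucleus after irradiation is a known trigger of this pathway, and Zbp1 and the p200 genes are themselves induced by interferon.

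RefSeq promoter windows are shown for 3 of the 6 members with UMIs, which encode the sensor, the kinase and the transcription factor of the signaling chain. The 250 bases before the RefSeq start of each gene are shown 5′ to 3′ on the gene's own strand in build GRCm38.p6, with every CG dinucleotide in capitals. The Cgas promoter lay at chr9:78443238-78443487 (minus strand), the Tbk1 promoter at chr10:121586795-121587044 (minus strand) and the Irf3 promoter at chr7:44997398-44997647 (plus strand).
Cgas: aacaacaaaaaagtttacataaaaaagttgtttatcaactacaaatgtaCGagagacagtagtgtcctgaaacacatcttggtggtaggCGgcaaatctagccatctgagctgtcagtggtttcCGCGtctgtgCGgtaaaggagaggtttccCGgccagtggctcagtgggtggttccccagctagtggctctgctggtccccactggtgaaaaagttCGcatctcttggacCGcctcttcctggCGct
Tbk1: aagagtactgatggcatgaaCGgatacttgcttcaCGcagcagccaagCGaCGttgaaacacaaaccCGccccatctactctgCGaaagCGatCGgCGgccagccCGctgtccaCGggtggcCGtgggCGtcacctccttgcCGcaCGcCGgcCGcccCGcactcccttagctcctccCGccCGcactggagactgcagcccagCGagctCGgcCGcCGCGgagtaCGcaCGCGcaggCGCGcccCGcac
Irf3: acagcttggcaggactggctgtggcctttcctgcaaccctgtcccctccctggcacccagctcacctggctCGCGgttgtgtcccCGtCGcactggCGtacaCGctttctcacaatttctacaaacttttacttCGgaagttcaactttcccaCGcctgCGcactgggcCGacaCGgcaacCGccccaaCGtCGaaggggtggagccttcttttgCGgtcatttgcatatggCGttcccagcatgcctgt
The Tbk1 window held 31 CG dinucleotides, the Irf3 window 16 and the Cgas window 9, against a median of 6 over 32851 promoter windows of the same length. As many as in Tbk1 were found in 5.19% of windows. A pair of GAAA runs with 2 bases between them, the core of the interferon-stimulated response element, was in 0 of these 3 windows on either strand and in 2.98% of all windows. Windows of Sting1, Zbp1 and Ifi204 were not examined.

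The libraries held 2859 to 8452 cells with medians of 6059 to 17931 UMIs per cell, and 34296 cells were retained. Between 3 and 19 cell barcodes were shared by a pair of libraries. Cells were sorted into classes by their markers, which gave 15814 MPNST-like, 11501 macrophage-like, 1314 T/NK-like, 497 endothelial-like and 264 dendritic-like cells. A further 231 fibroblast-like and 179 pericyte-like cells entered no test. In macrophage-like cells the 15 macrophage markers summed to 29743 to 43122 CPM (counts-per-million, from the UMIs summed over the cells of 1 class in 1 tumor) in irradiated and 33234 to 42548 in control tumors, and in MPNST-like cells to 70.0 to 112 and 120.4 to 154. By cell number, depth, mitochondrial share and dissociation stress genes the libraries were split into 2 technical sets, each with tumors of both groups. In set 1 were irradiated 1 and controls 2 and 3, and in set 2 the other 3 irradiated tumors and control 1. Of the 63 possible splits this one left the least variation in these measures, 0.550 of the total, against 0.607 for the next. The sets overlapped in mitochondrial share and in stress genes, so the split is a weak one. A term for it was tried as an alternative.

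The sensor Cgas was highest in macrophage-like cells. Levels are given as CPM and are compared between classes and not between genes, since the assay reads 3' ends. In macrophage-like cells Cgas reached 27.4, 40.0, 32.3 and 39.8 CPM in irradiated tumors 1 to 4 and 28.1, 25.7 and 28.7 CPM in control tumors 1 to 3. In MPNST-like cells it reached 10.6, 9.65, 12.6 and 13.6 CPM in irradiated tumors 1 to 4 and 10.4, 7.84 and 10.7 CPM in control tumors 1 to 3. Every tumor's macrophage-like level was above every MPNST-like level. The order over the classes was macrophage-like (31.7 ± 5.93 CPM, SD, n = 7), dendritic-like (24.9 ± 6.83 CPM), T/NK-like (16.1 ± 2.60 CPM), MPNST-like (10.8 ± 1.90 CPM) and endothelial-like (10.3 ± 6.81 CPM). Only 37 Cgas UMIs came from endothelial-like cells, and the fibroblast-like and pericyte-like levels of 6.40 ± 5.28 CPM and 3.36 ± 2.88 CPM rested on 14 and 7 UMIs.

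The adaptor Sting1 had a different order, with endothelial-like cells (68.6 ± 21.2 CPM, SD, n = 7) beside macrophage-like cells (64.4 ± 6.67 CPM). In endothelial-like cells Sting1 reached 71.8, 51.6, 71.5 and 107 CPM in irradiated tumors 1 to 4 and 60.2, 41.1 and 76.4 CPM in control tumors 1 to 3, and in macrophage-like cells 73.5, 56.8, 62.0 and 73.8 CPM in irradiated tumors 1 to 4 and 60.8, 60.1 and 64.0 CPM in control tumors 1 to 3. The 2 ranges overlapped. Dendritic-like cells had 48.4 ± 10.4 CPM, fibroblast-like cells 33.1 ± 12.1 CPM, T/NK-like cells 31.3 ± 7.47 CPM and pericyte-like cells 17.0 ± 7.34 CPM. MPNST-like cells had the lowest mean, with 16.3, 13.4, 20.2 and 17.1 CPM in irradiated tumors 1 to 4 and 17.8, 14.8 and 16.9 CPM in control tumors 1 to 3. Each of their levels was below each macrophage-like and endothelial-like level.

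The kinase Tbk1 was high in 2 immune classes, macrophage-like (91.8 ± 9.13 CPM, SD, n = 7) and T/NK-like (86.4 ± 10.9 CPM), whose ranges overlapped. It was lower in dendritic-like (55.8 ± 13.9 CPM) and endothelial-like cells (54.8 ± 8.55 CPM), and lowest in MPNST-like (30.6 ± 6.85 CPM) and pericyte-like cells (29.1 ± 12.2 CPM). The transcription factor Irf3 had the flattest profile. Its class means ran from 11.5 ± 1.31 CPM in MPNST-like to 22.8 ± 7.79 CPM in endothelial-like cells, with 14.3 ± 1.33 CPM in macrophage-like and 17.8 ± 5.89 CPM in T/NK-like cells. The ranges of neighbouring classes overlapped throughout that order.

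Zbp1 and Ifi204 had wide ranges over both classes and tumors. Zbp1 was highest in T/NK-like cells, with 67.7, 121, 105 and 159 CPM in irradiated tumors 1 to 4 and 95.3, 48.4 and 64.4 CPM in control tumors 1 to 3. Macrophage-like cells followed with 45.9, 118, 86.3 and 166 CPM in irradiated tumors 1 to 4 and 76.8, 31.4 and 41.7 CPM in control tumors 1 to 3, and MPNST-like cells had 4.22, 13.4, 11.0 and 32.0 CPM in irradiated tumors 1 to 4 and 12.1, 3.02 and 4.56 CPM in control tumors 1 to 3. In all 3 classes irradiated 4 was the highest tumor and control 2 the lowest. Dendritic-like, fibroblast-like, endothelial-like and pericyte-like cells held 60.3 ± 30.2 CPM, 53.5 ± 28.2 CPM, 28.7 ± 23.3 CPM and 25.8 ± 26.1 CPM (SD, n = 7).

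Ifi204 was highest in macrophage-like cells, with 164, 313, 204 and 333 CPM in irradiated tumors 1 to 4 and 224, 133 and 135 CPM in control tumors 1 to 3. Fibroblast-like, dendritic-like, pericyte-like and endothelial-like cells followed with 148 ± 57.4 CPM, 96.0 ± 42.8 CPM, 92.1 ± 35.5 CPM and 68.3 ± 37.5 CPM (SD, n = 7). T/NK-like cells held 26.5 ± 8.20 CPM, and MPNST-like cells held 2.30, 14.8, 8.34 and 22.8 CPM in irradiated tumors 1 to 4 and 12.1, 2.25 and 1.93 CPM in control tumors 1 to 3. The MPNST-like levels were below every macrophage-like level. Ifi204 has close paralogs in the p200 cluster, so reads may have been split among them and its counts are uncertain. For each of the 6 members, the tumors of every class overlapped in level with those of the next class in the order of means.

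**Figure D1:**
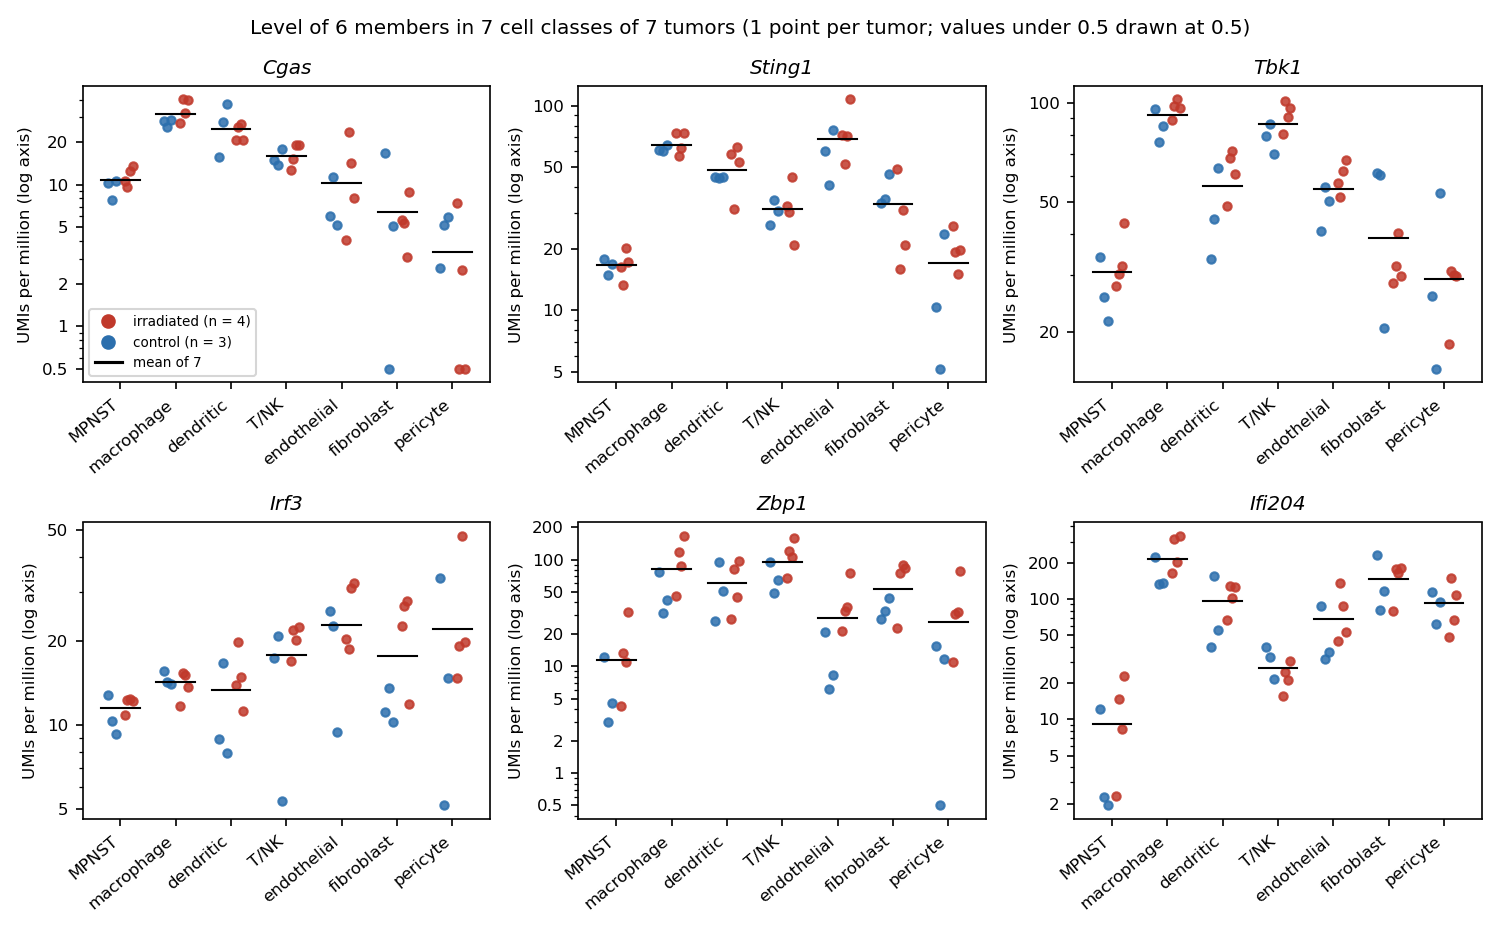
Levels of the 6 members with UMIs in 7 cell classes, on a logarithmic axis of CPM, with 1 point per tumor for irradiated (n = 4) and control (n = 3) tumors, a bar at the mean of 7 and values under 0.5 CPM drawn at 0.5. Ifi204 spans the widest range, from a mean of 9.21 CPM in MPNST-like to 215 CPM in macrophage-like cells, and Irf3 the narrowest.

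Within the lymphocytes, cells pooled over the tumors gave levels with 95% Poisson intervals that cover counting error only. Zbp1 stood at 132 CPM (111 to 156) in regulatory T-like, 119 CPM (98.4 to 143) in CD4 T-like, 103 CPM (87.3 to 121) in CD8 T-like and 51.5 CPM (32.7 to 77.3) in NK-like cells. Ifi204 was at 58.3 CPM (38.1 to 85.4) in NK-like and 7.67 CPM (3.31 to 15.1) in regulatory T-like cells. Cgas was at 29.1 CPM (15.5 to 49.8) in NK-like and 6.10 CPM (2.24 to 13.3) in CD4 T-like cells. The pooled levels compare these cells and not tumors, and no test was made on them.

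Most Ifi204 transcripts came from macrophage-like cells, although MPNST-like cells gave most of the RNA. MPNST-like cells gave 68.9% ± 8.91 of all UMIs of the retained cells in a tumor (SD, n = 7) and macrophage-like cells 17.7% ± 8.45. Against that background, macrophage-like cells gave 72.3% ± 7.50 of Ifi204 UMIs and 52.4% ± 9.45 of Zbp1 UMIs. The Zbp1 share had a mean of 57.0% in irradiated and 46.2% in control tumors and ran from 39.4% to 65.7%. MPNST-like cells gave 64.3% ± 9.73 of Irf3 UMIs, 49.7% ± 13.0 of Cgas UMIs, 48.9% ± 9.64 of Tbk1 UMIs and 44.2% ± 11.7 of Sting1 UMIs. Their shares of Ifi204 and Zbp1 UMIs were 10.1% ± 5.08 and 27.5% ± 7.68. In the whole tumor, fewer cells of a class and less RNA per cell cannot be told apart.

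**Figure D2:**
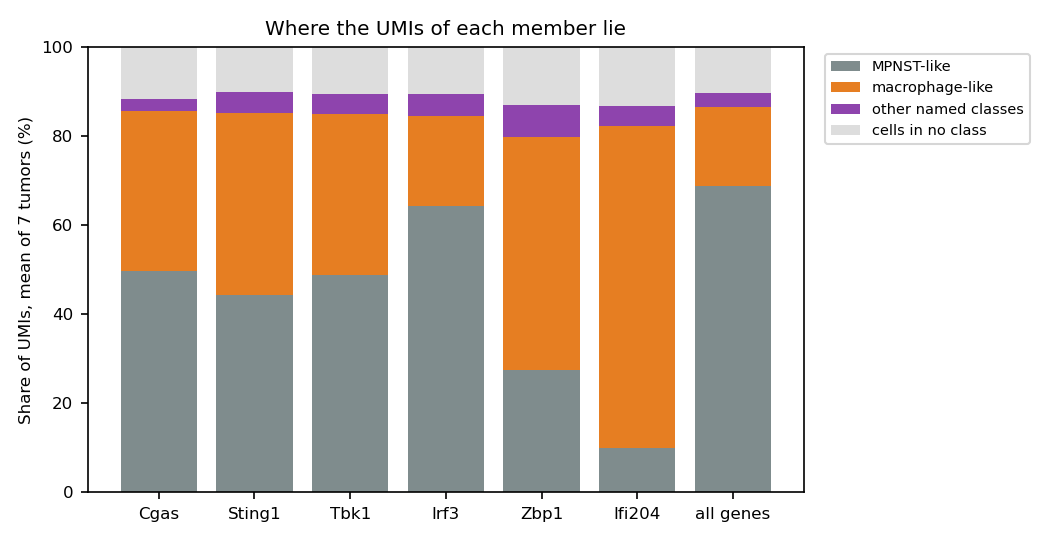
Stacked bars give the share of each member's UMIs, in percent, that came from MPNST-like, macrophage-like and other named classes and from cells in no class, as the mean over the 7 tumors, with the last bar for all genes. Macrophage-like cells held 72.3% of Ifi204 UMIs and 17.7% of all UMIs.

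Free RNA in the droplets can give UMIs in cells that do not express a gene. The 15 macrophage markers stood in MPNST-like cells at a median of 0.258% of their macrophage-like level, with a range of 0.187% (Itgam) to 0.784% (Fcgr3), and the class definition itself limited how many of them such a cell could carry. The members stood higher than that in MPNST-like cells. Ifi204 was at 3.65% of its macrophage-like level, Zbp1 at 12.7%, Sting1 at 26.0%, Tbk1 at 33.2%, Cgas at 34.3% and Irf3 at 80.7%. In T/NK-like cells the markers had a median of 1.07% and Ifi204, the lowest member, 13.6%. The part of free RNA and of mixed droplets in the members' levels was not tested.

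At matched depth, the share of cells with a UMI followed the levels. After every cell was thinned to 3000 UMIs, Ifi204 was found in 36.9% of macrophage-like, 6.06% of T/NK-like and 2.37% of MPNST-like cells, pooled over the tumors. Zbp1 was found in 17.6%, 21.9% and 2.55% of them. Cells with fewer UMIs were left out, which removed 2096 macrophage-like, 588 T/NK-like and 623 MPNST-like cells. The unthinned shares for Ifi204 were 53.5%, 6.77% and 10.7%, at median depths that ran over the tumors from 14255 to 31194 UMIs in MPNST-like, from 4099 to 12097 UMIs in macrophage-like and from 2002 to 5429 UMIs in T/NK-like cells. No class here is sure to lack Ifi204, and after thinning the MPNST-like share was the lowest of the 3.

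All 6 members with UMIs were higher in macrophage-like than in MPNST-like cells of the same tumors. Ifi204 was higher by 5.18 ± 0.31 on the log2 scale (SE, n = 7 tumors), Zbp1 by 3.28 ± 0.20, Sting1 by 2.26 ± 0.11, Tbk1 by 1.91 ± 0.10, Cgas by 1.86 ± 0.12 and Irf3 by 0.62 ± 0.12. The adjusted p of Irf3, the smallest difference, was 1.1e-05 in edgeR's quasi-likelihood test with tumor as a block. The count of 6 of 6 tested members stands beside a background of 39.9% of the 10677 genes tested that were higher. The median difference was 2.09 for the members and -0.05 for all genes. Scaling by total UMIs alone moved the median of all genes to -0.36 and the calls from 4264 higher and 4571 lower to 3407 and 5642. Under it all 6 members still passed, Irf3 with 0.31 and Ifi204 with 4.86.

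The other genes of the pathway did not all rise with the members in macrophage-like cells. Of the p200 family, 11 of 11 tested genes were higher, led by Ifi202b (8.76 ± 0.30) and Ifi209 (7.60 ± 0.21), and the list's median of 5.19 stood beside -0.05 for all genes. Of the nucleases, 7 of 10 were higher, led by the lysosomal exonuclease gene Pld4 (9.09 ± 0.24), and 1 was lower. Of the kinases and adaptors 9 of 11 were higher, of the STING regulators 8 of 13, and of the transcription factors 5 of 7, led by Irf5 (4.78 ± 0.13). The other DNA sensors split, with 2 of 10 higher and 6 lower, and the highest of them was the inflammasome sensor gene Aim2 (5.72 ± 0.30). Of the cGAS cofactors 2 of 8 were higher and 4 lower, of the genes of cGAMP transport and breakdown 1 of 4 were higher and 1 lower, and of the ZBP1 partners 3 of 4 were higher and 1 lower. All 4 tested output ligands were higher, among them Tnf (6.95 ± 0.23) and the chemokine gene Cxcl9 (5.43 ± 0.43).

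The T/NK-like cells had all 6 members higher than the MPNST-like cells, beside 35.0% of 10677 genes. Zbp1 was higher by 3.33 ± 0.22, Ifi204 by 1.84 ± 0.38, Tbk1 by 1.56 ± 0.11, Sting1 by 0.93 ± 0.15, Irf3 by 0.70 ± 0.17 and Cgas by 0.62 ± 0.18 on the log2 scale (edgeR's quasi-likelihood test, largest adjusted p 0.0021, n = 7 tumors). The Cgas call was lost when every gene with a UMI entered the fit (0.43). In dendritic-like cells 5 of 6 members were higher than in MPNST-like cells, beside 31.9% of genes, with Ifi204 at 3.73 ± 0.35, Zbp1 at 2.61 ± 0.27, Sting1 at 1.65 ± 0.16, Cgas at 1.27 ± 0.20 and Tbk1 at 0.99 ± 0.13. Irf3 differed there by 0.27 ± 0.24 (edgeR adjusted p 0.34). Around the members, 8 of 11 p200 genes were higher in T/NK-like and 11 of 11 in dendritic-like cells, and 5 of 7 and 7 of 7 of the transcription factors. The cGAS cofactors, which include Banf1, whose product keeps cGAS off nuclear DNA, had 4 of 8 lower in T/NK-like cells and 0 of 8 higher.

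In endothelial-like cells 5 of 6 members were higher than in MPNST-like cells, beside 30.2% of genes. Ifi204 was higher by 3.14 ± 0.34, Sting1 by 2.00 ± 0.14, Zbp1 by 1.37 ± 0.29, Irf3 by 0.94 ± 0.17 and Tbk1 by 0.87 ± 0.12. The sensor Cgas was the exception, at -0.27 ± 0.23 (edgeR's quasi-likelihood test, adjusted p 0.32), and it was called lower, at -0.54, when cells were given the class with the highest marker share. The call of Zbp1 was lost in the fit without the tumor block, at 1.10. Ikbke, the kinase gene closest to Tbk1, stood at -5.41 ± 0.75, and Enpp1, whose product breaks down cGAMP outside cells, at -4.63 ± 0.40.

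Macrophage-like cells also stood above the other host classes for part of the members. These contrasts share the macrophage-like sums. Against them T/NK-like cells were lower for 4 of 6 members, beside 38.1% of 10677 genes, with Ifi204 at -3.34 ± 0.35, Sting1 at -1.33 ± 0.14, Cgas at -1.23 ± 0.17 and Tbk1 at -0.35 ± 0.10. Zbp1 (0.04 ± 0.20) and Irf3 (0.08 ± 0.17) did not pass edgeR's quasi-likelihood test (adjusted p 0.86 and 0.69, n = 7 tumors). The Tbk1 call was lost with total UMIs (-0.09), in DESeq2's Wald test, in the highest-marker-share classes and without irradiated 1 (-0.26) or control 3 (-0.24). Total UMIs also moved the calls from 3322 higher and 4067 lower to 4173 and 3188.

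Endothelial-like cells were lower than macrophage-like cells for Cgas (-2.12 ± 0.21), Ifi204 (-2.04 ± 0.31), Zbp1 (-1.91 ± 0.26) and Tbk1 (-1.04 ± 0.12), 4 of 6 members beside 34.0% of genes. Sting1 (-0.27 ± 0.13) and Irf3 (0.31 ± 0.17) did not pass edgeR's quasi-likelihood test (adjusted p 0.072 and 0.11, n = 7 tumors). With total UMIs the split of calls went from 3649 higher and 3633 lower to 5016 and 2569, Sting1 turned to 0.06, and Irf3 passed as higher at 0.64. Over 15 alternatives Sting1 was called in 4, each as lower, with values from -0.58 (every gene with a UMI) to 0.06, and Irf3 in 5, each as higher, with values from -0.0012 to 0.64. Among these were Sting1 without irradiated 4 (-0.34) and Irf3 without control 3 (0.56).

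Dendritic-like cells were lower than macrophage-like cells for Ifi204 (-1.45 ± 0.32), Tbk1 (-0.92 ± 0.12), Zbp1 (-0.67 ± 0.25), Sting1 (-0.61 ± 0.15) and Cgas (-0.59 ± 0.19), 5 of 6 members beside 27.9% of genes. Irf3 differed by -0.35 ± 0.23 (edgeR's quasi-likelihood test, adjusted p 0.22, n = 7 tumors). Of the 264 dendritic-like cells 26.1% carried only the 3 markers that the class needed, against 3.39% of macrophage-like cells at their own cut. Dendritic-like cells carried a median of 3 macrophage markers, against 14 in macrophage-like cells. The part of macrophages or mixed droplets in the dendritic-like levels was not tested. Total UMIs turned the split of calls from 1884 higher and 2983 lower to 2517 and 2177, and under it Cgas (-0.40) and Zbp1 (-0.48) no longer passed, as in DESeq2's Wald test (-0.48 and -0.39). Over 14 alternatives the Cgas call stood in 8 (-0.83 to -0.40, highest edgeR adjusted p 0.088) and the Zbp1 call in 3 (-0.90 to -0.39, highest edgeR adjusted p 0.31). Cgas lost it without irradiated 1 or irradiated 4 (-0.46 each), and Zbp1 without any 1 of the irradiated tumors or control 1 (-0.65 to -0.50).

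Inside the macrophage-like class, cells with UMIs of the monocyte marker Ly6c2 were set against cells with UMIs of Mrc1 and C1q genes, markers of differentiated tissue macrophages. Zbp1 reached 140.2, 241, 236 and 276 CPM in irradiated tumors 1 to 4 and 188, 81.4 and 159 CPM in control tumors 1 to 3 in the Ly6c2 monocyte-like cells. In the Mrc1 C1q macrophage-like cells it reached 43.4, 80.9, 70.0 and 113 CPM in irradiated tumors 1 to 4 and 59.3, 28.7 and 34.7 CPM in control tumors 1 to 3. The monocyte-like level was the higher one in each of the 7 tumors. The monocyte-like sums were small in some tumors, with 25 cells and 135477 UMIs in irradiated 1 and 40 cells and 171885 UMIs in control 2. Of the 791 monocyte-like cells, 371 came from irradiated 4. Ifi204 reached 421, 534, 341 and 526 CPM in irradiated tumors 1 to 4 and 435, 419 and 342 CPM in control tumors 1 to 3 in the monocyte-like cells. It reached 153, 234, 179 and 249 CPM in irradiated tumors 1 to 4 and 184, 128 and 122 CPM in control tumors 1 to 3 in the macrophage-like cells, and the 2 sets of values did not overlap.

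Within tumors, Zbp1 was higher in the monocyte-like cells by 1.65 ± 0.10 on the log2 scale (SE, n = 7 tumors), Ifi204 by 1.27 ± 0.09, Cgas by 0.63 ± 0.15 and Tbk1 by 0.29 ± 0.10. These 4 of 6 members stand beside 16.6% of 10795 genes called higher. Sting1 went the other way, at -0.51 ± 0.12, beside 16.1% of genes called lower. Its levels were 66.4, 41.1, 39.7 and 55.5 CPM in irradiated tumors 1 to 4 and 45.4, 29.1 and 66.1 CPM in control tumors 1 to 3 in the monocyte-like cells. In the Mrc1 C1q cells they were 76.1, 59.9, 61.7 and 88.6 CPM in irradiated tumors 1 to 4 and 64.3, 64.8 and 65.6 CPM in control tumors 1 to 3. Irf3 differed by -0.06 ± 0.21. The adjusted p-values of edgeR's quasi-likelihood test were 5.8e-04 for Cgas, 9.1e-04 for Sting1, 0.025 for Tbk1 and 0.86 for Irf3, and the Tbk1 call was lost without irradiated 2, 3 or 4 or control 1 or 2 in turn (0.20 to 0.29).

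**Figure D3:**
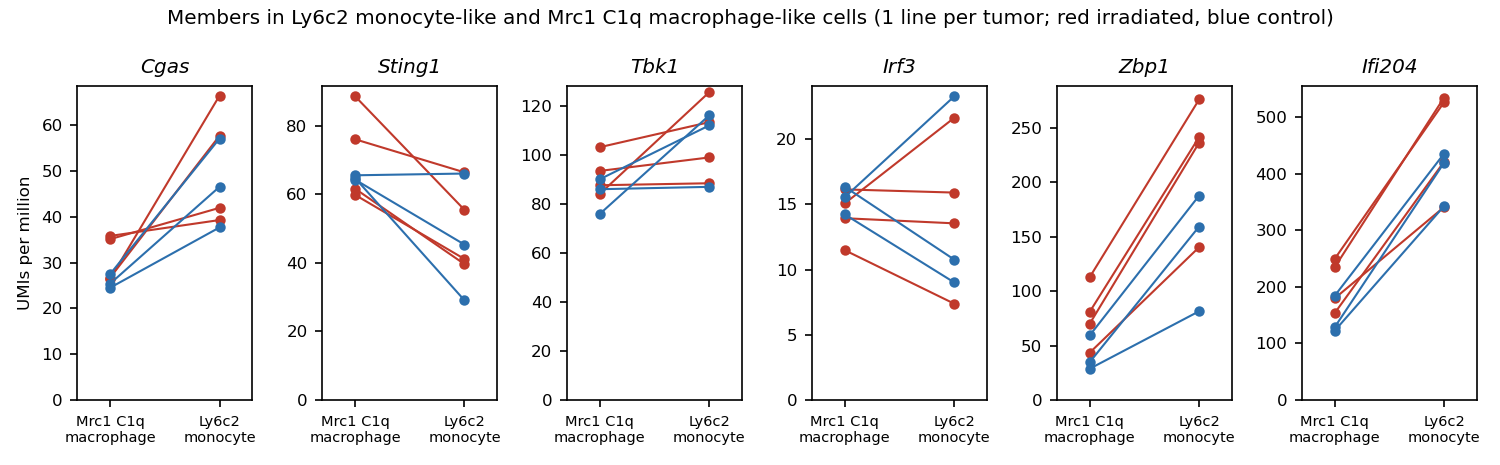
CPM of the 6 members in Mrc1 C1q macrophage-like (left) and Ly6c2 monocyte-like cells (right) on linear axes that start at 0, with 1 line per tumor joining its 2 values (red, 4 irradiated tumors; blue, 3 control tumors). Zbp1 and Ifi204 have the higher value in the monocyte-like cells in all 7 tumors, and Sting1 the lower value there in 6 of the 7.

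The pathway lists split in the same contrast. All 10 tested p200 genes were higher in the monocyte-like cells, with a median of 1.69 beside -0.04 for all genes, and Ifi205 led them (3.09 ± 0.18). Of the 30 genes of the type I interferon list 29 were higher, with a median of 1.45. The genes around cGAMP included 3 of 5 lower and Enpp1 at -2.75 ± 0.26. Among the STING regulators 2 of 14 were higher and 2 lower. The chemokine gene Ccl5, a product of interferon and NF-kB signaling, was higher by 2.47 ± 0.47.

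Irradiated and control tumors were compared at day 21, and no member was called in any class. In MPNST-like cells 0 of 6 members were called beside a background of 0% of 17502 genes in edgeR's quasi-likelihood test, with 214 genes at an unadjusted p under 0.05 and 0 in DESeq2's Wald test. In macrophage-like cells 0 of 6 were called beside 0% of 12756 genes, with 704 at an unadjusted p under 0.05 and 0 in DESeq2's test. In dendritic-like cells 0 of 5 were called beside 0% of 5578 genes, with 186 unadjusted and 0 in DESeq2's test. In T/NK-like cells 0 of 6 were called beside 0% of 7532 genes, with 417 unadjusted and 1 in DESeq2's test. In endothelial-like cells 0 of 5 were called beside 0% of 8015 genes, with 355 unadjusted and 1 in DESeq2's test. The DESeq2 calls were Scart1 in T/NK-like cells and Crabp1, an MPNST-like marker, in endothelial-like cells, both named after their values were seen. With 0 genes called in edgeR's test, the pathway lists had 0 genes called in each direction. Irf3 in dendritic-like and Cgas in endothelial-like cells fell under the filter on low counts and were not tested.

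Zbp1 had the largest irradiated-to-control differences of the members in MPNST-like, macrophage-like, T/NK-like and endothelial-like cells, and none passed edgeR's test. In macrophage-like cells the group means were 104 ± 50.9 CPM (SD, n = 4) against 50.0 ± 23.8 CPM (SD, n = 3), and the groups overlapped, since irradiated 1 was below control 1. The fitted difference was 1.04 ± 0.46 on the log2 scale (edgeR adjusted p 0.81). A term for the technical set brought it to 0.52 ± 0.27. Within set 1 irradiated exceeded control by 9.42 CPM (1 irradiated tumor against 2 controls), and within set 2 by 46.6 CPM (3 against 1). In MPNST-like cells the means were 15.2 ± 11.9 CPM (SD, n = 4) against 6.57 ± 4.88 CPM (SD, n = 3), the difference 1.14 ± 0.67, and 0.38 ± 0.44 with the technical set. Leaving out irradiated 4 gave 0.53 and leaving out control 1 gave 1.82. Macrophage markers summed lower in the MPNST-like cells of irradiated tumors, as given above, and their part in these levels was not tested. In T/NK-like cells the means were 113 ± 37.8 CPM (SD, n = 4) against 69.4 ± 23.8 CPM (SD, n = 3) with a difference of 0.64 ± 0.29. It was 0.32 ± 0.22 with the technical set, 0.42 without irradiated 4 and 0.97 without control 1.

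In endothelial-like cells Zbp1 reached 21.7, 32.9, 35.7 and 75.1 CPM in irradiated tumors 1 to 4 and 21.1, 6.16 and 8.37 CPM in control tumors 1 to 3. Irradiated 1 was next to control 1, the closest pair across the groups, and irradiated 4 stood far above the rest. The endothelial-like sums of irradiated 1 and control 1 held 737826 and 664540 UMIs of all genes, so their order is within counting error. The means were 41.4 ± 23.3 CPM (SD, n = 4) against 11.9 ± 8.04 CPM (SD, n = 3), and the exact permutation test over the 35 splits of the tumors gave p 0.0571, two-sided and before any adjustment. The smallest p that groups of 4 and 3 allow is 0.0286, and 1 other split of the tumors had a larger difference. The fit gave 1.81 ± 0.50 (edgeR unadjusted p 0.0033, adjusted p 1.00). With every gene that had a UMI in the fit the value was 1.76 (edgeR adjusted p 0.0044), and with the technical set 1.34 ± 0.41 (edgeR adjusted p 1.00). All of these levels rest on 94 Zbp1 UMIs over the 7 tumors. The 15 macrophage markers in the same endothelial-like cells summed to 183 to 266 CPM in irradiated and 334 to 355 CPM in control tumors. Their part in the Zbp1 levels was not tested.

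The other members had smaller irradiated-to-control differences in macrophage-like cells. Ifi204 was at 253 ± 82.6 CPM (SD, n = 4) against 164 ± 52.1 CPM (SD, n = 3) in macrophage-like cells, with a fitted difference of 0.61 ± 0.29, or 0.31 ± 0.19 with the technical set. In MPNST-like cells its difference was 1.11 ± 0.84, which fell to 0.24 ± 0.33 with the technical set and to 0.65 when irradiated 4 was left out, and reached 2.37 when control 1 was left out. In T/NK-like cells its difference was -0.49 ± 0.29, or -0.73 ± 0.30 with the technical set, and -0.27 without control 1. Cgas in macrophage-like cells was at 34.9 ± 6.14 CPM (SD, n = 4) against 27.5 ± 1.60 CPM (SD, n = 3), with a difference of 0.32 ± 0.14, or 0.22 ± 0.14 with the technical set. Sting1 differed by -0.04 in MPNST-like and 0.09 in macrophage-like cells, Tbk1 by 0.24 and 0.15, and Irf3 by 0.10 and -0.09. The smallest edgeR adjusted p among these was 0.81.

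**Figure D4:**
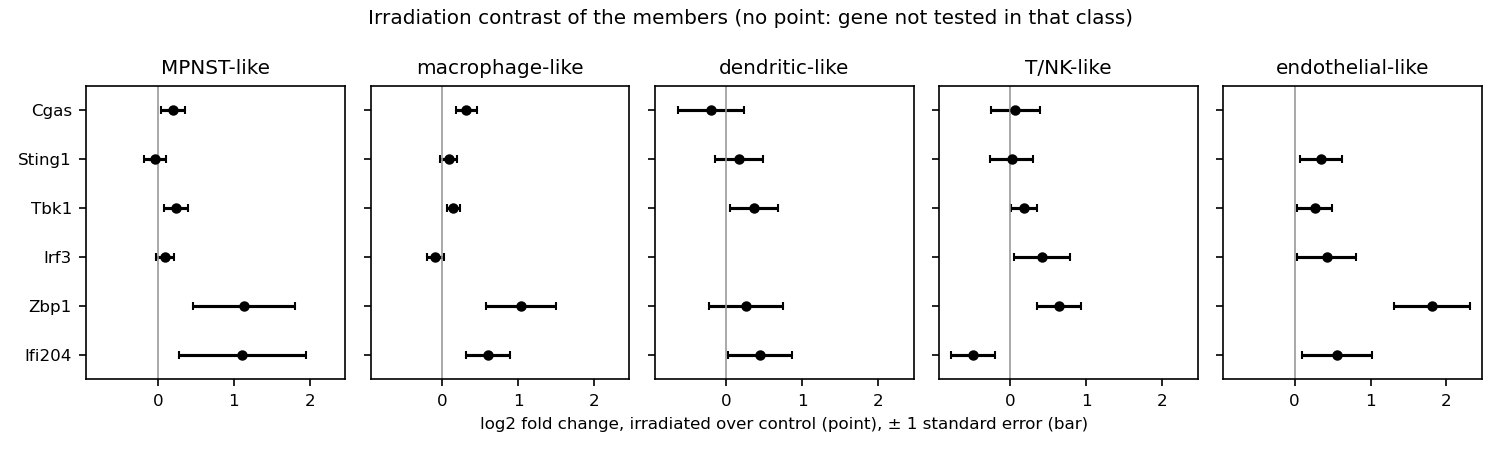
Fitted irradiated-over-control difference of each member (points, log2 scale) with 1 standard error on each side (bars) in 5 cell classes, from 4 irradiated and 3 control tumors. The Zbp1 points lie right of 0 in each class, at 1.14 in MPNST-like and 1.81 in endothelial-like cells, while Sting1, Tbk1 and Irf3 lie close to 0 in macrophage-like cells.

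Whether the irradiation difference itself varied between classes was tested for macrophage-like and for T/NK-like against MPNST-like cells. Members called were 0 of 6 in the first, beside 0% of 15184 genes and 826 at an unadjusted p under 0.05, and 0 of 6 in the second, beside 0% of 14439 genes and 693 unadjusted (edgeR's quasi-likelihood test). The largest member value was Ifi204 in T/NK-like against MPNST-like cells, where the difference of differences was -1.72 ± 0.56 (edgeR adjusted p 0.77). It passed at -1.75 when every gene with a UMI was kept (edgeR adjusted p 0.029).

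Tumors differed in a score of interferon-stimulated genes, and Zbp1 and Ifi204, themselves interferon-induced, rose with it. A rising slope of these 2 members was likely beforehand, so it describes them and is not independent evidence. A type I interferon score was taken as the mean log2 CPM of 30 interferon-stimulated genes in the same class, with those genes left out of the fit. In MPNST-like cells the slope of Ifi204 was 1.61 ± 0.11 log2 units per unit of score (edgeR adjusted p 5.7e-04, n = 7 tumors) and that of Zbp1 1.29 ± 0.12 (edgeR adjusted p 0.002). These 2 of 6 members stand beside 1.71% of 15524 genes with a rising slope. Tbk1 had 0.23 ± 0.07, Cgas 0.10 ± 0.10, Irf3 0.09 ± 0.06 and Sting1 -0.06 ± 0.08, and none of these 4 passed (smallest edgeR adjusted p 0.086). Zbp1 and Ifi204 passed without each of the 7 tumors in turn, while the number of genes called in either direction, 500 with all 7, ran from 43 without irradiated 4 to 678 without irradiated 2.

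In macrophage-like cells 3 of 6 members rose with the score, beside 7.84% of 11466 genes. Zbp1 had a slope of 1.24 ± 0.08 (edgeR adjusted p 3.9e-05), Ifi204 0.75 ± 0.08 (edgeR adjusted p 4.8e-04) and Cgas 0.33 ± 0.07 (edgeR adjusted p 0.014). Cgas no longer passed without irradiated 4 (0.31) or with irradiation as a term (0.30). Tbk1, Irf3 and Sting1 had 0.14 ± 0.06, 0.05 ± 0.09 and -0.02 ± 0.08. In T/NK-like cells 0 of 4 members passed, beside 0.104% of 5795 genes in either direction, and Zbp1 had 1.30 ± 0.29 (edgeR adjusted p 0.064). Cgas and Irf3 were under the count filter there. The Zbp1 slope passed without irradiated 2, at 1.39.

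The score moved with the technical sets. In MPNST-like cells it ran from 3.22 to 3.50 in set 1 and from 4.50 to 5.34 in set 2. In macrophage-like cells it ran from 5.38 to 5.52 and from 6.15 to 7.02, and in T/NK-like cells from 5.53 to 5.79 and from 5.97 to 6.59. The sets did not overlap in any of the 3 classes, although each held irradiated and control tumors. Once a term for the technical set was added, the slopes in MPNST-like cells were 1.56 ± 0.34 for Zbp1 and 1.25 ± 0.29 for Ifi204, and neither passed. In macrophage-like cells Zbp1 kept its call at 1.28 ± 0.19 (edgeR adjusted p 0.037), while Ifi204 (0.82 ± 0.18) and Cgas (0.62 ± 0.14) lost theirs. What the sets stand for is not labelled, and the score and the sets cannot be told apart beyond the within-set spread that these slopes use.

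**Figure D5:**
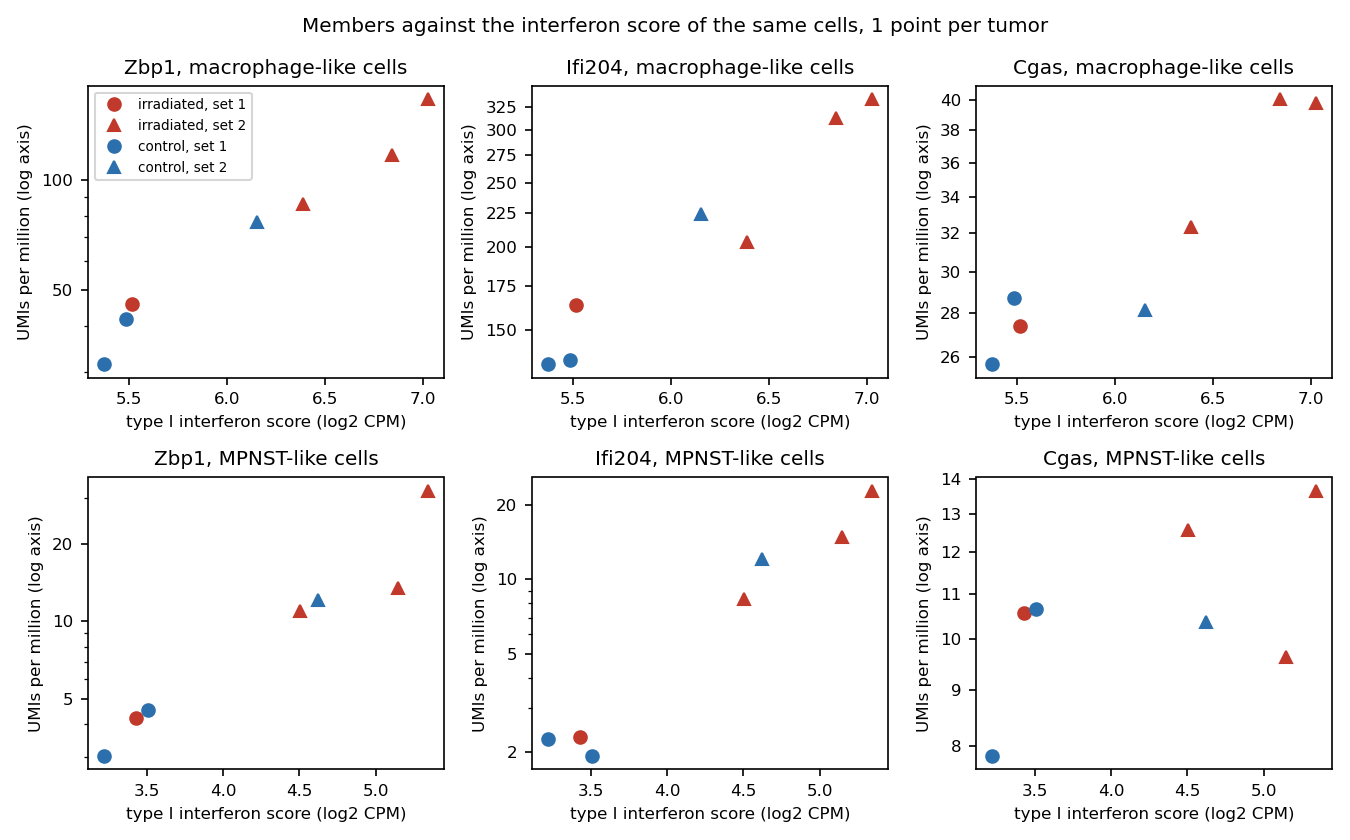
CPM of Zbp1, Ifi204 and Cgas in macrophage-like (top) and MPNST-like cells (bottom), on a logarithmic axis, against the type I interferon score (mean log2 CPM of 30 genes) of the same class, with 1 point per tumor marked by group and technical set. In MPNST-like cells the 3 tumors of set 1 lie at scores up to 3.50 and the 4 of set 2 from 4.50.

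Genes of the p200 family also rose with the score. In macrophage-like cells 10 of 10 tested p200 genes rose (median slope 1.21 beside -0.0045 for all genes), as did 6 of 10 nucleases (median 0.30). The transcription factor gene Irf7 had 1.31 ± 0.09, Usp18, whose product restrains interferon receptor signaling, had 1.20 ± 0.07, and Enpp1 fell, at -0.87 ± 0.08. Of the other DNA sensors 0 of 11 rose and of the kinases and adaptors 2 of 11. In MPNST-like cells 6 of 7 p200 genes rose (median 1.01 beside 0.01 for all genes), and Irf7 (1.34 ± 0.08) and Cxcl10 (0.96 ± 0.11) rose with them. Of the kinases and adaptors 0 of 11 rose there. These lists were written with results of these tumors known, so their direction is not independent evidence.

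Of the interferon genes on the list of output ligands, Ifnb1 had 138 UMIs in the retained cells and Ifna2, Ifna4, Ifnl2 and Ifnl3 had 0. Interferon genes outside this list were not examined. The chemokine genes Cxcl10, Ccl5 and Cxcl9 had 115302, 63631 and 14487 UMIs. A count of 0 over all cells of the 7 libraries, which also held for these 4 genes, allows up to 0.00464 CPM (3 UMIs of the total), which covers counting error only.

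The members did not form a single expression pattern. Over the 35 sums of 5 classes and 7 tumors, which share libraries and depth, the highest Pearson correlation between 2 members' log2 CPM was 0.83 for Tbk1 and Zbp1, followed by 0.77 for Sting1 and Ifi204, and the lowest was -0.14 for Cgas and Irf3. Among 9439 genes the closest to each member over the same sums was Dclre1c for Cgas (0.88), Frmd4b for Sting1 (0.93), Dnm2 for Tbk1 (0.91), Smarca4 for Irf3 (0.71), H2-D1 for Zbp1 (0.95) and Bst2 for Ifi204 (0.92). The genes nearest to Zbp1, H2-D1, Trim14 and B2m, include 2 genes of MHC class I, the molecules that present peptides to T cells. The correlations describe these sums, which are not independent samples.

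Trex1, the exonuclease that removes the ligand of cGAS, had 0 UMIs in every library, which allows up to 0.0196 to 0.0561 CPM per library by counting error alone. In the GENCODE M21 annotation of GRCm38, all 1147 exon bases of Trex1 are shared with exons of Atrip on the same strand. Atrip, whose product works with the DNA damage kinase ATR, had 5243 UMIs in the retained cells. Of the 47 genes with all their exon bases shared in this way, 36 (76.6%) had no UMI, against 4415 of 30064 genes (14.7%) with none shared. These groups of genes were not matched for length or expression. The other 6 members share 0 exon bases. The annotation behind the counts may differ from this one, and the part of the overlap in the count of 0 was not tested. Trex1 therefore entered no comparison.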

How the data were processed

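The authors deposited UMI counts per gene and cell, made by Cell Ranger 8.0.0 per the file headers, although the study names an earlier version. Per the labels the submitters' processing notes list Cell Ranger, Seurat 4.4 and mm10, and the annotation behind the counts is not given in the sources used here. Cells over 3 median absolute deviations from their library's medians were removed, which left 34296 of 39537. Classes came from marker genes, and the number of markers a cell needed was set after the files were seen. Doublets were not called or removed. UMIs were summed per tumor and class, with at least 20 cells, and tested with edgeR 4.0.16 (quasi-likelihood test, filterByExpr, TMM, robust, Benjamini-Hochberg at 0.05) in R 4.3.3, with tumor as a block between classes. The log2 CPM of the interferon score and of the same-numbered deviations used a prior count of 2. Alternatives were DESeq2 1.42.0, filters, gates, terms and left-out tumors. Scaling by total UMIs was added after seeing the data. The p-values of the irradiation and slope fits measure the spread between tumors. In the fits with tumor as a block they measure the spread of class differences over the tumors. Members and gene lists were chosen with earlier results of these data known. Genes beyond the members were named by size of change within fixed lists, at most 12 a comparison. For the irradiation fits, the script was run on simulated counts with known log2 changes of 2. Thinned cells were drawn with seed 1.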

Additional observations from a re-analysis of the deposited data

Results flagged for a closer look

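Irf3 in the MPNST-like cells of irradiated tumors had 1 value apart from the others, at 10.9 CPM in irradiated 1 against 12.2 to 12.4 CPM in the other 3. The gap to the nearest tumor was 0.849 of the range of the 4 values, above Dixon's 95% critical value for 4 samples. This was 1 of 42 sets of 4 irradiated tumors examined over the members and classes, and chance gives such a value in about 1 in 20 sets.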

How the results depend on the processing

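Of 1415 values of the members under an alternative, 1320 kept direction and side of the threshold, 36 lost a call, 15 gained one and 44 changed sign, and these 44 were of values that passed no test in the reported fit. The cause was not tested unless stated. Keeping every gene with a UMI tests more genes, and gave 6 irradiation calls in dendritic-like, 66 in T/NK-like and 91 in endothelial-like cells, 45 in the T/NK-like interaction, 16355, 12623 and 10227 in the macrophage-like, T/NK-like and endothelial-like contrasts against MPNST-like cells and 123 in the T/NK-like slope. DESeq2's Wald test gave 14070 calls in the macrophage-like contrast against MPNST-like cells and 1 irradiation call each in T/NK-like (Scart1) and endothelial-like cells (Crabp1). Highest-marker-share classes gave 1 irradiation call in macrophage-like (Slpi) and 1 in endothelial-like cells (Lum). The slopes gave, with the technical set as a term, 0 calls in MPNST-like, 44 in macrophage-like and 3 in T/NK-like cells (Hsph1, Nav2 and St3gal4), with irradiation as a term 49, 799 and 0, and with stricter classes 27 in T/NK-like cells. Genes in parentheses were named after their values were seen.

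Leaving out 1 tumor gave 0 to 1 irradiation calls in T/NK-like (Scart1, without irradiated 4) and 0 to 2 in endothelial-like cells (Maf and Crabp1 without control 1, Tafa1 without control 3). The interactions ran from 0 to 2 (Mecom and Nhs, without irradiated 1) and 0 to 16 calls (10 without irradiated 1, Apbb2, Grik2, Vcan and ENSMUSG00000121513 without control 1 and 16 without control 3). The slopes ran from 43 to 678 in MPNST-like, 799 to 1741 in macrophage-like (lowest without irradiated 4) and 3 to 34 in T/NK-like cells (highest without irradiated 2). Member values that changed sign without a tumor ran over the tumors left out, on the log2 scale, from -0.14 to 0.033 for Sting1 in MPNST-like, -0.55 to 0.18 for Cgas and -0.14 to 0.72 for Zbp1 in dendritic-like and -0.024 to 0.16 for Cgas and -0.19 to 0.21 for Sting1 in T/NK-like cells (irradiation), and -0.23 to 0.077 for Irf3 in the monocyte contrast. In the interactions they were -0.070 to 0.16 for Cgas, -0.17 to 0.0080 for Tbk1 and -0.23 to 0.10 for Zbp1 in macrophage-like and -0.060 to 0.25 for Sting1 and -0.16 to 0.086 for Tbk1 in T/NK-like cells. Slopes were -0.013 to 0.15 for Cgas and -0.14 to 0.0038 for Sting1 in MPNST-like, -0.17 to 0.038 for Sting1 and -0.012 to 0.12 for Irf3 in macrophage-like and -0.67 to 0.26 for Sting1 in T/NK-like cells.

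Other sign changes were of irradiation values, for Irf3 in macrophage-like cells (0.055, highest marker share), Cgas in T/NK-like cells (-0.012 with the technical set, -0.15 with the highest marker share) and Sting1 there (-0.014, stricter classes). Against macrophage-like cells, T/NK-like Irf3 changed to -0.13 with every gene and -0.034 with stricter classes, T/NK-like Zbp1 to -0.17 and -0.10, and endothelial-like Sting1 to 0.064 with total UMIs and Irf3 to -0.0012 with every gene. The Tbk1 interaction in T/NK-like cells was 0.013 with stricter classes. With the technical set the slope was -0.062 for Irf3 in MPNST-like and 0.25 for Sting1 and -0.17 for Irf3 in macrophage-like cells.

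Replicate numbers of irradiated and control tumors came from the labels, which state no pairing, and the tumors were not treated as paired. The correlation of same-numbered deviations from the group means was -0.44 to 0.11. Since the deviations sum to 0 within a group, this cannot show whether tumors were paired. With the replicate number as a block the irradiation fit gave 1 call in T/NK-like cells (Scart1) and 0 in the other 4 classes, and Zbp1 in dendritic-like and Cgas in T/NK-like cells changed sign, to -0.14 and -0.056. Without the tumor block, Zbp1 in T/NK-like against macrophage-like cells was -0.0037, and the class contrasts had 4792 to 8676 calls. Not run were irradiation in fibroblast-like cells (13 cells in control 1), stricter classes for dendritic-like, endothelial-like and Ly6c2 monocyte-like cells and the highest marker share for dendritic-like cells, each with under 20 cells in a tumor. Depth limits the classes with few UMIs of a member, above all Zbp1 and Cgas in endothelial-like cells.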
